A study of Mus musculus with 18 samples.

Results

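The genes described here encode cytochrome c and, with few exceptions, nuclear subunits of complex III (the cytochrome bc1 complex), complex IV (cytochrome c oxidase) and ATP synthase. They were chosen by symbol, as every row beginning with Uqcr, Cox4i, Cox5, Cox6, Cox7, Cox8 or Atp5, plus Cyc1 and Cycs, without symbols that mark pseudogenes. The choice gave 44 of the 19509 genes in either table: 10 of complex III and cytochrome c, 17 of complex IV and 17 of ATP synthase. Of these, 40 were in the acute table (18329 genes) and 44 in the survival table (18953 genes).

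The RNA came from leukemic spleens of C57BL/6 mice. The leukemia, a T-cell acute lymphoblastic one (T-ALL), carried a conditional knockout allele of Acly, the gene of ATP citrate lyase. The T-ALL cells had been injected intravenously into sublethally irradiated mice. KO animals received tamoxifen, 3 mg per mouse in corn oil by intraperitoneal injection, and WT animals received corn oil alone, so every KO and WT difference also includes tamoxifen. The acute groups (KO acute and WT acute, 4 libraries each) received treatment when leukemia was overt and were collected 48 h later. The survival groups were treated 48 h after transplant and taken at the humane endpoint: KO survival first wave (3 libraries), KO survival second wave (3 libraries) and WT survival (4 libraries). No source used here gives what set the waves apart, the recombinase and its driver, or the exons removed. Whether libraries came from separate mice, or all from the same primary leukemia, is not in the labels, so p-values measure the spread between these libraries, which may be technical.

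The libraries held an estimated 6.08 to 12.7 M reads each. Acly itself, the check of the labels, was at 1422, 1129, 1231 and 1241 normalized counts in the WT acute libraries and at 793, 804, 717 and 619.6 in the KO acute libraries, a log2 difference of -0.78 (SE 0.13, limma adjusted p = 0.00266). In the exact two-sided permutation test p was 0.0286, the smallest that 4 libraries against 4 allow. Its survival differences were -1.22 in the first wave (limma adjusted p = 0.0562) and -1.56 in the second (limma adjusted p = 0.00155). Genes that define T-lineage leukemia cells were present in every library, where the 14 listed markers made up 0.667% to 1.37% of the counts.

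Electrons pass from ubiquinol through complex III to cytochrome c and on to complex IV, which reduces oxygen. Both complexes pump protons, and ATP synthase lets the protons flow back through its membrane ring of c subunits to drive the catalytic head. Most subunits are encoded in the nucleus and translated in the cytosol, but each complex also needs subunits encoded by mitochondrial DNA. Many of the nuclear genes carry promoter sites for the transcription factors NRF1, GABP, YY1 or CREB.

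The promoters of the genes were searched for exact matches to one short site of each of these factors, because many of the genes moved together in the acute libraries. The windows ran from 250 bases before to 50 bases after each RefSeq start on GRCm38.p6, and 34 of the 44 genes matched, with 37 windows. The NRF1 core, the capitals in the Atp5g2 stretch below, was in 4 of the 37 windows (10.8%, against 0.971% of all 32851 windows), those of Atp5g2, Atp5k, Cox6a1 and Uqcrc1. The ETS site CCGGAAGT was also in 4 (10.8%, against 3.89%), those of Atp5h, Cox8a, Uqcr11 and Uqcrh. AAGATGGC, a YY1 site, was in 3 (8.11%, against 2.75%), those of Atp5f1, Atp5j and Atp5j2. The cAMP response element TGACGTCA was in 2 (5.41%, against 1.79%), those of Cycs and Uqcrfs1. Both strands were searched, and no site overlapped another kind. These are matches of letters, described without a test. The 4 stretches of 120 bases below show a site in a gene that fell in the acute KO libraries (Atp5j and Uqcrfs1) or that did not pass the test (Atp5g2 and Cox6a1). All 4 genes lie on the minus strand, the sequences run 5′ to 3′ along the gene upstream of its start, and capitals mark the site.
Atp5j, YY1 site, chr16:84834977-84835096: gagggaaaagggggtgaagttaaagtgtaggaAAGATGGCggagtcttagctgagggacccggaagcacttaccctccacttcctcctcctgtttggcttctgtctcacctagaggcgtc
Uqcrfs1, cAMP response element, chr13:30545317-30545436: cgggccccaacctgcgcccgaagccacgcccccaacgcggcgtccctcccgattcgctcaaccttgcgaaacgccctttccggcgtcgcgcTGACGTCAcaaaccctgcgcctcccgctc
Atp5g2, NRF1 core, chr15:102671048-102671167: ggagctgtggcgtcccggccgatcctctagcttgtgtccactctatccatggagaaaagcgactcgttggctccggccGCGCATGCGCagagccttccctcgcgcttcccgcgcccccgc
Cox6a1, NRF1 core, chr5:115349016-115349135: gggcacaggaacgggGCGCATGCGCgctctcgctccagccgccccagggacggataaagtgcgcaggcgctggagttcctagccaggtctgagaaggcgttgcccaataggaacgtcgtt
None of the 4 genes with the NRF1 core passed the test in the acute comparison. Of the 4 with the ETS site Cox8a fell, of the 3 with the YY1 site Atp5f1 and Atp5j fell, and of the 2 with the cAMP response element Uqcrfs1 fell. Among the 38 tested genes of the complexes 17 fell, and over all genes tested 8.07%. Atp5a1, Atp5mpl, Cox4i1 and Uqcrc2 also fell but had no promoter window. Counts this small cannot compare the sites.

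The acute comparison asks what differed 48 h after Acly deletion was induced in established leukemia. Genes of all 3 complexes were lower in the KO acute libraries. Of 38 genes with a mean of at least 10 normalized counts, 17 fell and 0 rose in limma with Benjamini-Hochberg adjustment over all genes at a threshold of 0.05. Over all 14184 genes tested 8.07% fell and 4.58% rose. The count was 9 when WT acute replicate 4 was left out and 11 when WT acute replicate 3 was. The log2 difference was negative in 36 of the 38, with a median of -0.57 against 0.03 over all genes tested. For 18 of the 38 the highest KO value was under the lowest WT value (11% of all genes tested), and for 0 the order was the opposite (8.04% of all genes).

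The summed normalized count of these genes was 22610, 21619, 22807 and 24774 in the WT acute libraries and 12431, 13336, 15807 and 15338 in the KO acute libraries. The KO sums were thus 54.2% to 68.9% of the WT mean, and the highest KO library stayed below the lowest WT library. The genes took 0.278% to 0.309% of all counts in WT and 0.171% to 0.224% in KO. By complex, the KO mean was 66.8% of WT for complex III with cytochrome c, 62.0% for complex IV and 60.7% for ATP synthase. KO replicates 1 and 2 had lower sums than KO replicates 3 and 4 over all these genes, in complex IV and in ATP synthase, but in complex III with cytochrome c replicate 4 (2382) lay below replicate 2 (2462). Over the 17 genes that fell, the median level relative to the WT mean was 47.3%, 45.3%, 64.1% and 57.5% in KO replicates 1 to 4.

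**Figure D1:**
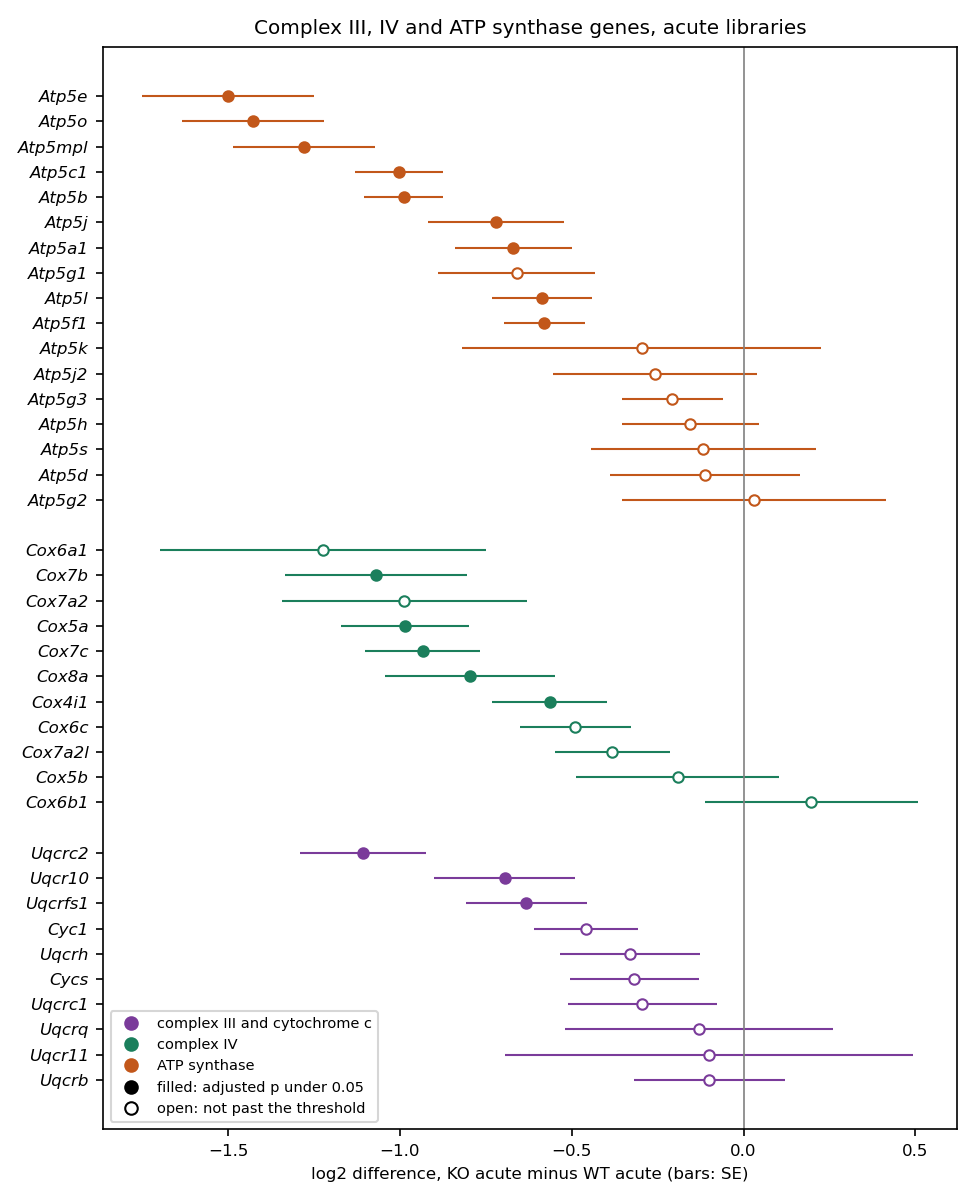
Log2 difference (KO acute minus WT acute, horizontal axis) of the 38 tested genes, grouped by complex and ordered within each, with bars for the SE. Filled points are the 17 genes past the threshold, all of them left of 0, and Cox6b1 and Atp5g2 are the only points right of 0.

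In complex III, 3 of 9 genes fell. Uqcrc2 encodes core protein 2, one of the large matrix-facing subunits, and lies at chr7:120635176-120659524 on GRCm38. It was at 1219.5, 1033, 1100.1 and 1358 normalized counts in the WT acute libraries and at 436, 421, 747 and 636 in the KO acute libraries. All KO values were lower than all WT values, and the mean changed from 1178 ± 143 to 560.0 ± 159 (SD, n = 4 each), a log2 difference of -1.11 (SE 0.18, limma adjusted p = 0.00265). Uqcrfs1 encodes the Rieske iron-sulfur protein, which hands electrons on to cytochrome c1. Its values were 352, 319, 381 and 482 in WT and 207, 251, 264 and 259 in KO, again without overlap (-0.63, SE 0.18, limma adjusted p = 0.0310). Uqcr10 encodes a small membrane subunit and was at 215, 305, 319 and 334 in WT and at 148, 227, 159 and 188 in KO. It passed the test (-0.70, SE 0.21, limma adjusted p = 0.0410), although KO replicate 2 was above WT replicate 1. Of 21 alternative settings Uqcr10 passed under 11 and Uqcrfs1 under 14, and Uqcr10 missed the threshold when any of 6 of the 8 libraries was left out (adjusted p up to 0.123).

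The other genes of this step did not pass. Cyc1, cytochrome c1, was at 490.3, 520.1, 526 and 497 in WT and 401, 412, 384 and 294 in KO, without overlap, but its difference of -0.46 had a limma adjusted p of 0.0619. Cycs, the soluble carrier cytochrome c, was at -0.32 (SE 0.19). Uqcrc1, the partner of Uqcrc2 in the core of the complex, was at -0.29 (SE 0.22), with 255, 391, 346 and 322 in WT and 316, 326, 269 and 176 in KO, where the groups overlapped. Uqcrh, which encodes the hinge protein, was at -0.33 (SE 0.20). Uqcrb, Uqcrq and Uqcr11 encode small subunits and lay between -0.13 and -0.10. The highest value of the group, that of Uqcrb, came from 159, 135, 197 and 144 in WT and 146, 189, 143 and 116 in KO, where the groups overlapped.

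**Figure D2:**
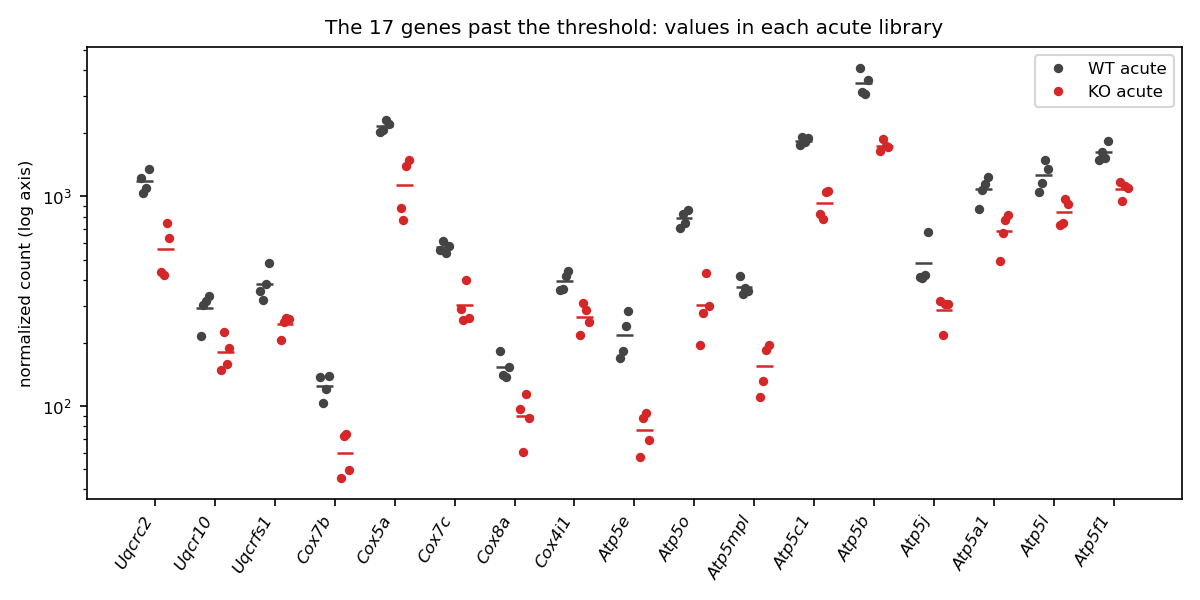
Normalized count (log axis) of each of the 17 genes past the threshold in the 4 WT acute and 4 KO acute libraries, with a bar at each group's mean. The KO points lie below the WT points in 16 of the genes, and the groups overlap in Uqcr10.

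In complex IV, 5 of 11 tested genes fell. The catalytic core of this complex is made in the mitochondrion, and the nuclear subunits surround it and affect its assembly and regulation. Cox5a (chr9:57521274-57532426) was at 2033, 2080.1, 2317 and 2215 normalized counts in WT and 879.6, 769, 1402 and 1484 in KO. Its KO values fell into a lower pair, replicates 1 and 2, and a higher pair, replicates 3 and 4, both below WT (-0.99, SE 0.19, limma adjusted p = 0.00493). Cox7b, needed for assembly of the complex, was at 138, 103, 121 and 139 in WT and 45.3, 71.7, 73.7 and 49.3 in KO (-1.07, SE 0.26, limma adjusted p = 0.0184), and the groups did not overlap.

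Cox7c, a small membrane subunit, was at 555, 609.8, 539 and 579.7 in WT and 291, 257, 401 and 263 in KO (-0.93, SE 0.17, limma adjusted p = 0.00361). This value is uncertain. Gm10012, a transcript on chromosome 17, matches 58.3% of the Cox7c transcript at 99.4% identity, and reads of one can be counted to the other. Gm10012 had a mean of 252 ± 76.1 in WT and 313 ± 89.5 in KO (SD, n = 4 each). When the rows were summed, the difference was -0.42 and missed the threshold (limma adjusted p = 0.0695).

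Cox4i1 and Cox8a passed narrowly. Cox4i1, the ubiquitous form of subunit 4, was at 357, 361, 416 and 439 in WT and 218, 310.1, 289 and 252 in KO, without overlap (-0.56, SE 0.17, limma adjusted p = 0.0416). Cox8a, the ubiquitous form of subunit 8, was at 183, 140.1, 138 and 153 in WT and 97.1, 60.1, 114 and 87.3 in KO, also without overlap (-0.80, SE 0.25, limma adjusted p = 0.0498). Of 21 alternative settings, Cox8a passed under 6 and Cox4i1 under 8, with adjusted p up to 0.196 and 0.124.

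Among the complex IV genes that did not pass, Cox6a1 had the lowest value, -1.22 (SE 0.47, limma adjusted p = 0.107). It was at 110.4, 86.9, 64.1 and 96.8 in WT and 47.1, 11.0, 49.8 and 70.5 in KO, and KO replicate 2 was the lowest. Cox7a2 was at 53.2, 123, 97.5 and 146 in WT and 44.0, 56.4, 70.3 and 33.4 in KO (-0.99, SE 0.36, limma adjusted p = 0.0859). Its relative Cox7a2l was at -0.38 (SE 0.17, limma adjusted p = 0.155), with 846, 1051, 1252 and 1399 in WT and 688, 834, 971 and 967 in KO. Cox6c was lower in every KO library than in any WT library, but missed the threshold (-0.49, limma adjusted p = 0.0644). Cox5b, the partner of Cox5a in the matrix-facing part, was at -0.19 (SE 0.29). Cox6b1, which faces the intermembrane space where cytochrome c docks, had the highest value of the complex, 0.20 (SE 0.31), with 66.1, 44.2, 91.4 and 72.4 in WT and 61.5, 77.8, 111 and 63.7 in KO.

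Several subunits of complex IV have isoforms restricted to heart, muscle, lung or testis, and these were near the lower limit of the data. In the acute table Cox4i2 and Cox6b2 had means of 6.35 and 4.19 normalized counts and were not tested. In the survival table Cox4i2, Cox6a2, Cox6b2, Cox7a1, Cox7b2 and Cox8b had means of 1.85 to 8.49 and were not tested either. The ubiquitous forms therefore held nearly all counts of each pair, with a WT acute mean of 393 for Cox4i1 against 7.29 for Cox4i2, and of 68.5 for Cox6b1 against 2.85 for Cox6b2.

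In ATP synthase, 9 of 17 genes fell. Of the 5 subunits of the catalytic head, 4 fell. Atp5b, the beta subunit that binds nucleotide at the catalytic sites, was at 4117, 3154, 3081 and 3608 normalized counts in WT and 1651, 1886, 1739 and 1714 in KO, and the KO libraries lay closer together than the WT libraries (-0.99, SE 0.11, limma adjusted p = 0.000790). Atp5c1, the gamma subunit that turns inside the head, was at 1752, 1920.1, 1812 and 1894 in WT and 826, 779.9, 1048 and 1059.9 in KO (-1.002, SE 0.13, limma adjusted p = 0.000955). Atp5e, the small epsilon subunit of the central stalk, had the lowest log2 difference of all these genes, -1.50 (SE 0.25, limma adjusted p = 0.00266), with 169, 182, 242 and 283 in WT and 56.9, 87.6, 93.0 and 68.7 in KO.

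Atp5a1, the alpha subunit, changed by -0.67 (SE 0.17, limma adjusted p = 0.0204), with WT values from 869.9 to 1239 and KO values from 491 to 811. It passed under 16 of 21 alternative settings. Without WT acute replicate 2, 3 or 4 it missed the threshold (limma adjusted p = 0.0511, 0.0569 and 0.0725), and also without KO acute replicates 1 and 2 (limma adjusted p = 0.12). Atp5d, the delta subunit of the central stalk, did not pass and was at -0.11 (SE 0.28), with 69.3, 79.0, 88.0 and 95.4 in WT and 64.4, 57.8, 83.8 and 108 in KO. The KO values of Atp5d lay on both sides of the WT values.

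The peripheral stalk holds the head still against the turning ring, and 3 of its 4 nuclear subunits fell. Atp5o, which links the stalk to the top of the head and is annotated at chr16:91684398-91926982, was at 703, 826, 748 and 863 in WT and 195, 278, 433 and 302 in KO, without overlap (-1.43, SE 0.21, limma adjusted p = 0.00131). Atp5f1, the long b subunit, was at -0.58 (SE 0.12, limma adjusted p = 0.00724), and Atp5j, the F6 subunit, at -0.72 (SE 0.20, limma adjusted p = 0.0302). The Atp5j call rested on single libraries, with a limma adjusted p of 0.101 without WT acute replicate 4 and of 0.0727 without KO acute replicate 2. Atp5h, the d subunit, was at -0.15 (SE 0.20) and did not pass. Of the supernumerary membrane subunits, Atp5l (subunit g, -0.59, SE 0.15, limma adjusted p = 0.0188) and Atp5mpl (-1.28, SE 0.21, limma adjusted p = 0.00223) fell. Atp5l passed under 13 of the 21 alternative settings and Atp5mpl under 21. Atp5mpl was at 418, 344, 366 and 355 in WT and 111, 132, 185 and 195 in KO, without overlap. Atp5k (subunit e) and Atp5j2 (subunit f) were at -0.30 (SE 0.52) and -0.26 (SE 0.30), with WT means of 30.4 and 76.0. Atp5s, known as the factor B gene and not a core subunit, was at -0.12 (SE 0.33).

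The proton-carrying c ring is built from identical proteins made by Atp5g1, Atp5g2 and Atp5g3, and none of the 3 passed in the acute comparison. Atp5g3 was at 1949, 1291, 1507 and 1633 in WT and 1115, 1312, 1499.8 and 1589.7 in KO (-0.21, SE 0.15). Atp5g1 was at 291, 298, 244 and 185 in WT and 112, 170.4, 159 and 204 in KO, with 1 WT library inside the KO range (-0.66, SE 0.23, limma adjusted p = 0.0749). Atp5g2 varied widely in both groups, with 184, 84.3, 237 and 108 in WT and 66.2, 203, 159 and 201 in KO (0.03, SE 0.38).

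The c-ring values also depend on near-identical rows, and Atp5g1 and Atp5g2 are uncertain for that reason. The transcript Gm10175 on chromosome 7 matches 88.2% of the Atp5g2 transcript at 100% identity, and the pseudogene Gm10231 matches 60.3% of it. Together they held more counts than Atp5g2 itself, with a mean of 316 ± 74.2 in WT acute and 205 ± 66.4 in KO acute libraries (SD, n = 4 each). With the rows summed, Atp5g2 went from 469 ± 40.4 to 362 ± 47.4 and the log2 difference from 0.03 to -0.38 (SE 0.15, limma adjusted p = 0.119). Summing Atp5g1 with its pseudogene Gm10039 gave -0.86 (SE 0.19, limma adjusted p = 0.0112), which passed. For Atp5l and Atp5h the summed values were -0.60 (limma adjusted p = 0.0201) and -0.16 (limma adjusted p = 0.634), close to the single rows.

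**Figure D3:**
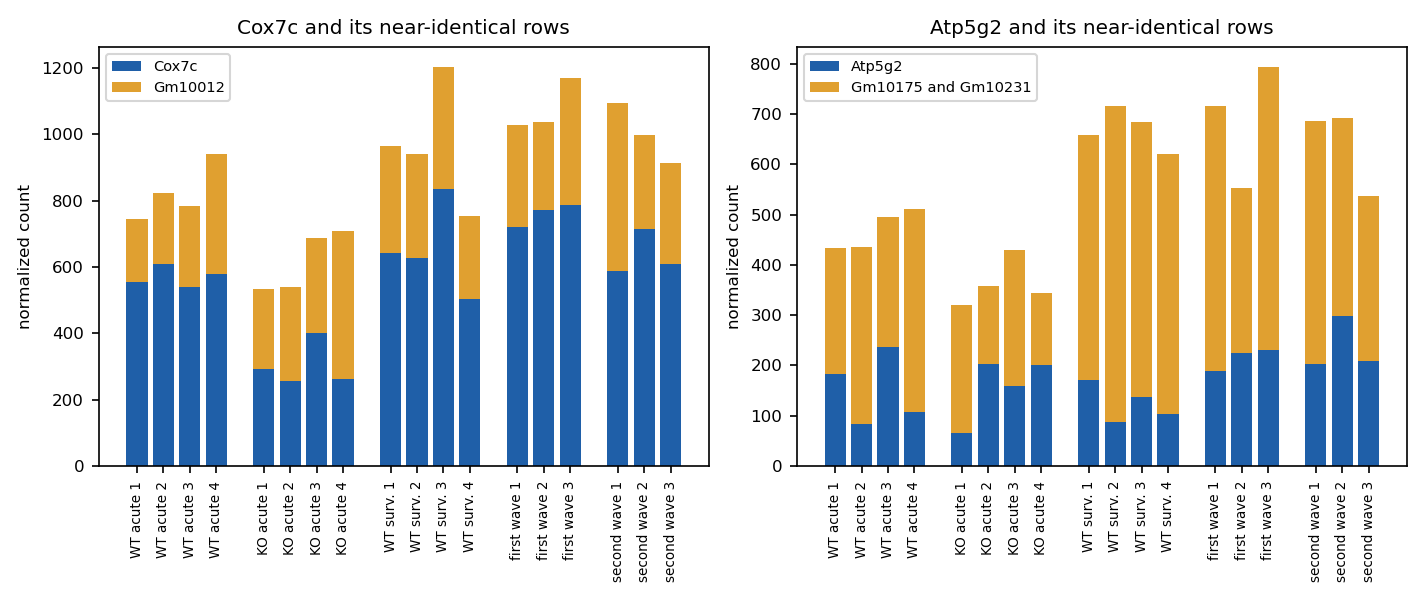
Normalized count per library of Cox7c with Gm10012 (left) and of Atp5g2 with Gm10175 and Gm10231 (right), stacked, for the 8 acute and 10 survival libraries. In the KO acute libraries the Cox7c part of the bar is shorter than in WT while the Gm10012 part is not shorter on average, and in the survival libraries the Atp5g2 part is a minority of each bar.

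Some genes share exon bases with a neighbour, and the strand setting of the counting is not given. Overlaps of at least 50 bases on the opposite strand involved Uqcrc2 with Pdzd9 (19.7% of its exon bases), Atp5j with Gabpa (12.7%), Cox4i1 with Emc8 (9.94%), Atp5f1 with Wdr77 (8.21%) and Atp5a1 with Haus1 (4.11%) among the genes that fell. Atp5o shares 12.7% of its exon bases with Donson on the same strand.

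The genes that passed were in general the better measured ones. Their mean over the acute libraries was 92.5 to 2619 normalized counts (median 437) and their SE 0.11 to 0.26. The 21 others had means of 13.1 to 1487 (median 154) and SEs of 0.15 to 0.59. Among these 21, 19 were negative with a median log2 difference of -0.26, and 2 were lower in every KO library than in any WT library. The median transcript length was 711 bases in the genes that fell and 625 bases in the others, and the median GC content was 51.6% in both. The 38 genes were shorter than others, with a median of 635 bases against 2152 bases over all genes tested. With the trend over abundance, GC content and length removed, 10 of the 38 fell and 0 rose, and the median was -0.43.

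Levels of the genes can be compared with each other only per length. In the WT acute libraries Cox5a had the highest mean per kilobase of transcript, 3351, followed within complex IV by Cox7c at 1057 and Cox7a2l at 1031. The tested complex IV gene with the lowest was Cox7b at 125. In ATP synthase Atp5l (2328) and Atp5g3 (2219.8) were highest, ahead of Atp5c1 (1845) and Atp5b (1822), and Atp5s was lowest (74.4). In complex III the range was from 31.2 for Uqcr11 to 999 for Uqcrc2. Annotated transcript lengths vary within a gene, so the order of neighbours in these ranges is approximate. Genes with high levels per kilobase were found both among those that fell (Cox5a, Atp5l, Atp5c1, Atp5b) and among those that did not pass (Atp5g3).

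The mitochondrially encoded partners did not pass the test in either direction: 0 of 6 were called. Their summed count was 182358 to 202662 in WT, while in KO it was 227496 and 248990 in replicates 1 and 2 and 107528 and 129838 in replicates 3 and 4. The KO libraries thus lay on both sides of the WT range. Mt-Cytb of complex III was at -0.01 (SE 0.23). Of the complex IV core, mt-Co1 was at 0.13 (SE 0.24), mt-Co2 at -0.53 (SE 0.18, limma adjusted p = 0.0755) and mt-Co3 at -0.36 (SE 0.25). Of the ATP synthase subunits, mt-Atp6 was at 0.31 (SE 0.22) and mt-Atp8 at -0.08 (SE 0.28). All mitochondrially encoded genes together took 3.497% to 3.69% of the WT counts and 4.80%, 5.27%, 2.35% and 2.70% of the KO counts. Without the 2 KO libraries of high share, 9 of the 38 nuclear genes fell and 0 rose, and the median was -0.50.

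**Figure D4:**
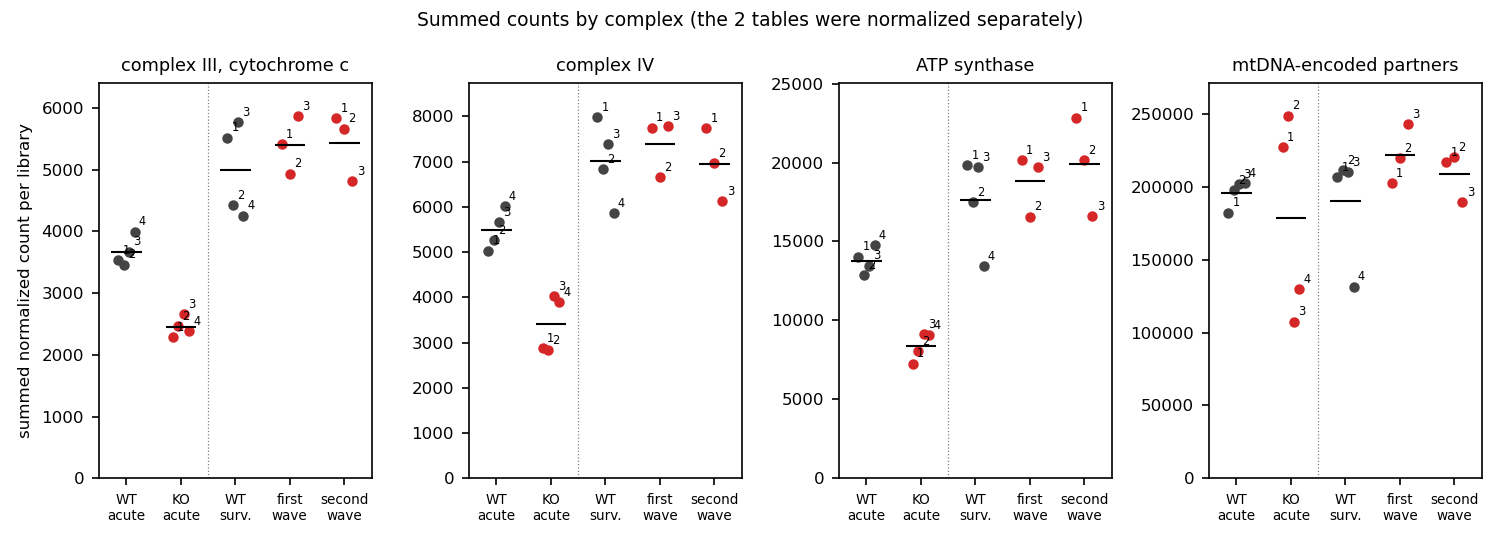
Summed normalized count per library (linear axes from 0) of complex III with cytochrome c, complex IV, ATP synthase and the 6 mitochondrially encoded partners, with replicate numbers beside the points and a bar at each group's mean. In the first 3 panels all KO acute points lie below all WT acute points, and in the partners' panel they lie on both sides of them.

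Genes that help to build the complexes were mostly not called, and over all genes tested 8.07% fell and 4.58% rose. Of 25 complex IV assembly genes 2 fell, Coa5 (-0.88, SE 0.12, limma adjusted p = 0.00115) and Smim20 (-0.83, SE 0.19, limma adjusted p = 0.0137), and 1 rose, Pet117 (3.17, SE 0.81, limma adjusted p = 0.0213). Pet117 had a mean of only 6.49 ± 4.82 in WT and 58.5 ± 41.3 in KO (SD, n = 4 each). Of 4 tested genes that assemble or inhibit ATP synthase, Atpaf1, a chaperone of the beta subunit, fell (-0.83, SE 0.20, limma adjusted p = 0.0150). The inhibitor gene Atpif1 was at -0.19 (SE 0.20). None of 6 complex III assembly genes was called. In complex II, the succinate dehydrogenase that feeds the same ubiquinone pool, 1 of 4 genes fell, Sdhb (-1.20, SE 0.23, limma adjusted p = 0.00491).

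Of 13 listed transcription factors and coactivators, 2 fell and 0 rose (8.07% and 4.58% of all genes tested). Sp1 changed by -1.03 (SE 0.14, limma adjusted p = 0.000969) and Yy1 by -0.56 (SE 0.13, limma adjusted p = 0.0142). Nrf1 was at 0.07 (SE 0.15), Gabpa at -0.30 (SE 0.12, limma adjusted p = 0.130), Tfam at -0.04 (SE 0.15), Esrra at 0.22 (SE 0.18), Ppargc1a at 0.42 (SE 0.50) and Ppargc1b at 0.11 (SE 0.29). These 6 did not pass.

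For comparison, 5 of 37 nuclear complex I genes fell and 0 rose, with a median log2 difference of -0.46. Of 78 mitochondrial ribosomal protein genes 7 fell and 2 rose (median -0.26), and of 81 cytosolic ribosomal protein genes 27 fell and 1 rose (median -0.31). Over all genes tested 8.07% fell and 4.58% rose. The shares of these lists were not tested against each other.

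Spleens hold other cells beside the leukemia, and in bulk RNA fewer cells of a type and less RNA per cell cannot be told apart. In the acute comparison 8.07% of all genes tested fell and 4.58% rose. Of 14 thymocyte and T-ALL markers 5 fell and 1 rose. They took 1.065% to 1.26% of the WT acute and 0.743% to 1.09% of the KO acute counts. Of 11 erythroid markers 1 fell and 0 rose (0.0753% to 0.146% in WT, 0.0261% to 0.154% in KO). Of 12 neutrophil markers 2 rose and 0 fell (0.01% to 0.0219% in WT, 0.0210% to 0.0637% in KO). Of 2 tested stroma and endothelium markers 1 rose, and the 5 measured took 0.00826% to 0.01% in WT and 0.0133% to 0.0157% in KO, without overlap. Most of this share was Pecam1, at 567 to 684 normalized counts in WT and 855 to 1010 in KO. Col1a1, Col1a2, Col3a1 and Kdr overlapped between the groups. The 5 dendritic cell markers also did not overlap (0.000885% to 0.00138% in WT, 0.00160% to 0.00217% in KO), though 0 of 4 tested passed. None of the tested B cell (7), macrophage (6), NK cell (3), plasma cell (2) and platelet (2) markers was called. Of the measured markers, the platelet gene Gp9 was at 0 in all WT acute libraries, and no other was at 0 in a whole acute group. The part of these cells and of the mitochondrial share in the results was not tested.

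The survival comparisons ask whether the leukemias that reached the endpoint differed from WT. In these none of the 38 tested genes was called in limma in either wave, between the waves, or for both waves against WT. Over all 14286 genes tested, 0% were called in the first wave, 0.224% in the second (0.175% lower and 0.049% higher), 0.119% between the waves (0.105% and 0.014%) and 0.021% for both waves (0.014% and 0.007%), so few calls were made of any kind. At an unadjusted p under 0.05 there were 2, 1, 3 and 1 of the 38 genes in the 4 comparisons, in the same order (5.26%, 2.63%, 7.89% and 2.63%), against 8.02%, 13.0%, 6.34% and 12.9% of all genes. The median log2 difference was 0.09 in the first wave and 0.10 in the second, against 0.01 and -0.01 over all genes. The waves share the same WT libraries.

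The summed count of all 44 genes was 33358, 28734, 32892 and 23556 in the WT survival libraries, 33305, 28161 and 33338 in the first wave and 36404, 32800 and 27561 in the second. Both KO groups overlapped WT, with means of 107% and 109% of WT. WT survival replicate 4 had the lowest sum of the 10 libraries. The median log2 differences of the 38 genes depended on single libraries. They were -0.03 and 0.01 in the first and second wave without that library, and 0.14 and 0.17 without WT survival replicate 1. In the first wave the median was 0.14 without WT survival replicate 3, and without first-wave replicates 1 and 3 it was 0.02 and 0.06. In the second wave it was 0.02 without second-wave replicate 1 and 0.23 without second-wave replicate 3. WT survival replicates 1 and 2 stood apart from replicates 3 and 4. They were at -78.6 and -67.2 on the first principal component (the main axis of spread between libraries), against 18.8 and -4.2. Bcl11b was at 2717 and 3162 in them, against 7966 and 6736, and Ngp at 661 and 352, against 54.2 and 106. Other markers, such as Cd8a and Ly6g, did not separate these pairs. Mmp8 separated them in the direction opposite to Ngp, and was lower in WT survival replicates 1 and 2 than in replicates 3 and 4. Without these 2 WT libraries the medians were 0.16 and 0.17, and 0 of the 38 genes were called in either wave.

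The 3 genes with the smallest adjusted p in any survival comparison were Atp5g2, Cox4i1 and Uqcrc1, all in the second wave. Atp5g2 was at 171, 86.9, 138 and 104 in WT survival, at 189.5, 225 and 231 in the first wave and at 203, 298 and 209 in the second, so that both KO groups lay above WT. The differences were 0.82 (SE 0.28, limma adjusted p = 0.617) and 0.94 (SE 0.28, limma adjusted p = 0.202). With its near-identical rows summed they were 0.02 (limma adjusted p = 0.979) and -0.08 (limma adjusted p = 0.895), as the summed count was 670.1 ± 41.0 for WT (SD, n = 4), and 688 ± 123 and 639 ± 88.2 for the first and second wave (SD, n = 3 each).

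Cox4i1 was at 392, 561, 601 and 730.0 in WT survival, 539, 426 and 563 in the first wave and 555, 358 and 265 in the second (-0.57 in the second wave, SE 0.27, limma adjusted p = 0.391), and the groups overlapped. Uqcrc1 was at 563, 474, 484 and 448 in WT, 562, 437 and 517 in the first wave and 448, 333 and 344 in the second (-0.40 in the second wave, SE 0.20, limma adjusted p = 0.416). The second wave lay below every WT library, by less than 1 count in the closest pair.

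Few of the genes had groups that did not overlap. In the first wave 1 of 38 was higher in every KO library, Atp5g2 (4.4% of all genes tested), and 0 were lower (3.6%). In the second wave 1 was higher, again Atp5g2 (5.04%), and 1 was lower, Uqcrc1 (4.62%). Between the waves 3 were higher in every second-wave library, Atp5g3, Atp5k and Cox6b1 (6.3% of all genes), and 2 were lower, Atp5s and Cox7c (7.29%). For both waves together 1 was higher, Atp5g2 (1.25%), and 0 were lower (0.875%). The largest difference between the waves was that of Cox6b1, at 81.0, 36.3 and 95.4 in the first wave and 174, 112 and 103 in the second (0.93, SE 0.39, limma adjusted p = 0.730).

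The 17 genes that fell in the acute libraries had survival log2 differences of -0.29 to 0.33 in the first wave (median 0.11, 12 positive and 5 negative) and of -0.57 to 0.41 in the second (median 0.11, 11 positive and 6 negative), with SEs of 0.17 to 0.31. Atp5o, for example, was at 1079, 1059, 1127 and 654 in WT survival, 1062, 1115 and 1419.9 in the first wave and 1289, 1059 and 1122 in the second. Uqcrc2 was at 1608, 1233, 2027 and 1191 in WT survival, 1713, 1486 and 1984 in the first wave and 1739, 2227 and 1567 in the second. For both genes the KO values lay within or above the WT range. Cox5a was at 3112, 2315, 2467 and 2185 in WT survival, 2913, 2529 and 3242 in the first wave and 2437, 3129 and 2435 in the second, with overlap throughout.

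**Figure D5:**
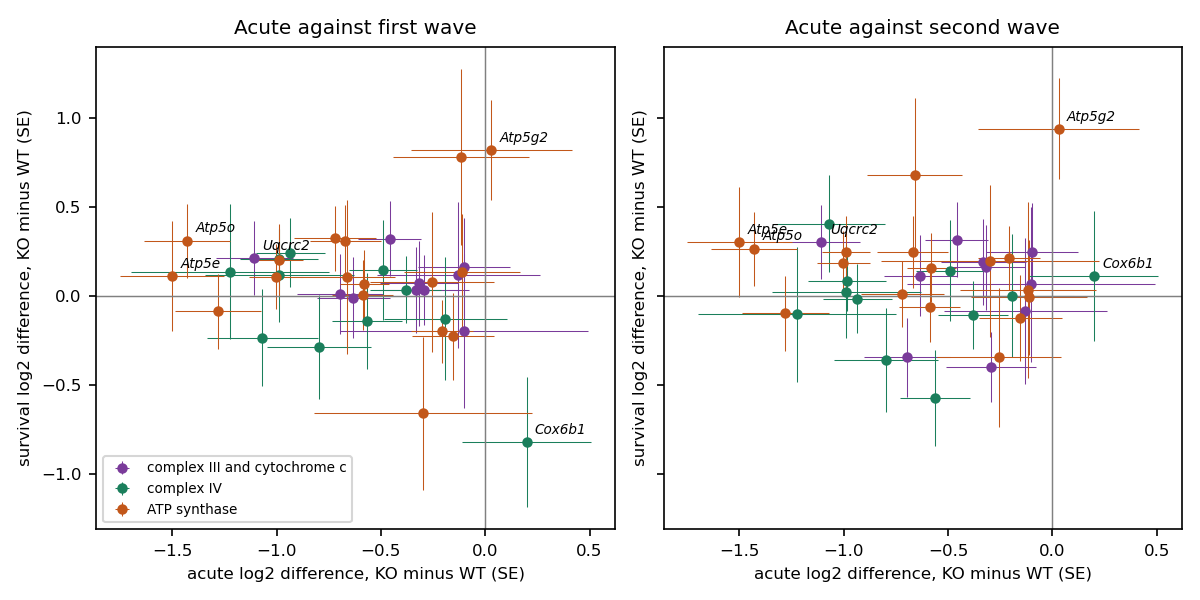
Acute log2 difference (horizontal axis) against the survival log2 difference (vertical axis) of the first wave (left) and second wave (right) for the 38 genes, with bars for the SE. The genes spread from -1.50 to 0.20 along the acute axis and lie on both sides of 0 along the survival axis.

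Whether the acute and survival differences differ was tested in 1 fit over all 18 libraries, where each difference was taken within its own table and the acute and survival differences shared no library. For 10 of the 38 genes the acute difference was lower than that of the first wave, and for 11 it was lower than that of the second wave. Of all 13742 genes tested, 5.45% and 6.14% were lower, and 7.82% and 9.39% differed in either direction. In neither case was any of the 38 higher (2.37% and 3.25% of all genes). Without KO acute replicates 1 and 2 the counts were 3 and 6. The count of 10 was 6 without first-wave replicate 3. By complex the 10 and 11 were 1 of 10 genes of complex III with cytochrome c in both cases, 2 and 3 of 11 of complex IV, and 7 and 7 of 17 of ATP synthase.

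Atp5o had the lowest adjusted p in both, with a gap on the log2 scale of -1.74 from the first wave (SE 0.30, limma adjusted p = 0.00319) and of -1.69 from the second (SE 0.30, limma adjusted p = 0.00274). For Atp5b the values were -1.19 (SE 0.24, limma adjusted p = 0.00696) and -1.24 (SE 0.24, limma adjusted p = 0.00401), and for Uqcrc2 -1.32 (SE 0.29, limma adjusted p = 0.0107) and -1.41 (SE 0.29, limma adjusted p = 0.00521). Cox7c passed in both as a single row, but with its near-identical row summed it was at -0.60 (limma adjusted p = 0.104) and -0.49 (limma adjusted p = 0.170). Atp5g1 did not pass as a single row, and with Gm10039 summed it was at -1.01 (limma adjusted p = 0.138) and -1.45 (limma adjusted p = 0.0325). Atp5l, Cox4i1, Cox8a, Uqcr10 and Uqcrfs1 passed in the acute comparison but in neither of these tests, where Cox4i1 was at -0.42 (SE 0.32) and 0.01 (SE 0.32). The acute and survival groups differ in the time of treatment, the time to collection and the disease stage, and these cannot be told apart. Of 14 thymocyte and T-ALL markers, 5 were lower in the acute than in the first-wave difference (5.45% of all genes tested). Only 1 of the 14 was lower than in the second-wave difference (6.14% of all genes). In neither test was any of them higher (2.37% and 3.25% of all genes). Of 9 neutrophil markers 1 and 2 were higher, all 9 were positive in both tests, and the medians were 2.20 and 1.77. Of 6 B cell markers 0 and 2 were higher (medians 0.86 and 2.10), and of 2 stroma and endothelium markers 1 was higher and 1 lower against the second wave. WT survival replicates 1 and 2, which stood apart, enter these differences. Mpo was at 229 and 172 in them and at 0.994 and 7.52 in WT survival replicates 3 and 4. Rag1 was at 10604 and 12884 in them, against 28723 and 31477. Ly6g and Retnlg of the neutrophil markers did not separate these pairs, nor did Cd3d, Cd8a and Notch1 of the thymocyte and T-ALL markers. The neutrophil marker Mmp8 went the other way from Mpo, and was lower in WT survival replicates 1 and 2 than in replicates 3 and 4. The part of these cells was not tested.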

How the data were processed

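The signal values deposited by the authors, in an acute and a survival table, are gene counts from kallisto 0.44.0 (GRCm38) divided by DESeq size factors, per the submitters' processing notes. Annotation, gene filter and strand setting are not stated in any source used. Each table has its own normalization, and tests stayed within a table. The estimate of 6.08 to 12.7 M reads came from the smallest steps between low values. Of values above 0 and under 8 normalized counts, 38.1% to 63.4% were whole multiples of that value within 0.02. This is too few to recover reads, and no count model was used. Depth sets counting error only.

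Values were taken as log2(value + 1), which understates changes of low genes. Genes whose mean in a table was 10 or more entered limma 3.58.1 (R 4.3.3, lmFit and eBayes with trend) with Benjamini-Hochberg adjustment over all genes at 0.05, on the 8 acute, the 10 survival or, for differences of effects, all 18 libraries. All adjusted p are from this model. Near-identical rows (blastn 2.17.0, at least 95% identity over at least 50% of a transcript) were summed as an alternative chosen after seeing the data. Coordinates, lengths and GC content came from GENCODE M21, which held 18312 of 18329 acute and 18940 of 18953 survival symbols, and promoters from RefSeq (GRCm38.p6). The scripts were tested on simulated data.

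Members and lists were chosen with earlier results of these data known. Values per library are given for the 3 genes with the smallest adjusted p and the one with the highest difference in each complex, the paralogs and the 3 smallest adjusted p of the survival comparisons. From the other lists, up to 3 called genes each are named, with the mitochondrially encoded partners and 6 factors. Further genes with such values (Atp5e, Atp5mpl, Atp5d, Cyc1, Cox8a) were added after seeing the data. Alternatives were other pseudocounts, filters, scalings and variance models, a replicate block, a trend removed, and libraries left out.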

Additional observations from a re-analysis of the deposited data

Results flagged for a closer look

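Of 114 groups of 4 libraries tested over these genes, 4 held a library far from the other 3 by Dixon's criterion, and chance gives about 1 in 20. Atp5j was at 677 in WT acute replicate 4 (others 409.6 to 422) and at 218 in KO acute replicate 2 (others 307 to 317). Without either library the acute difference of Atp5j missed the threshold, with limma adjusted p of 0.101 and 0.0727. Atp5o was at 654 in WT survival replicate 4 (others 1059 to 1127), and Cox6b1 at 88.9 in WT survival replicate 3 (others 127 to 128).

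The acute KO and WT difference was lower than the first-wave difference for 10 genes in the 18-library fit. On the log2 scale the gaps were -0.98 for Atp5a1, -1.19 for Atp5b, -1.11 for Atp5c1, -1.61 for Atp5e, -1.05 for Atp5j, -1.19 for Atp5mpl, -1.74 for Atp5o, -1.19 for Cox5a, -1.18 for Cox7c and -1.32 for Uqcrc2, with limma adjusted p of 0.00319 to 0.0316. Against the second wave they were -0.92 for Atp5a1, -1.24 for Atp5b, -1.19 for Atp5c1, -1.80 for Atp5e, -0.74 for Atp5f1, -1.18 for Atp5mpl, -1.69 for Atp5o, -1.07 for Cox5a, -1.48 for Cox7b, -0.92 for Cox7c and -1.41 for Uqcrc2, with limma adjusted p of 0.00274 to 0.0451. The Atp5f1 gap passed under 10 of 33 settings and ranged from -0.88 to -0.29 (adjusted p up to 0.369), and that of Atp5a1 passed under 23 and 21 of 33. The 2 sets share the acute libraries and the WT survival libraries.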

How the results depend on the processing

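Of the 17 acute calls, 6 (Atp5b, Atp5c1, Atp5e, Atp5mpl, Atp5o and Uqcrc2) held under all 21 alternatives, and no gene of the 38 rose under any. The acute count of 17 became 8 with eBayes without trend, 10 with the trend over abundance, GC content and length removed, 9 with that and the replicate block, 9 without KO acute replicates 1 and 2 (high mitochondrial share), and 9 to 16 with 1 library left out. WT acute replicates 4 and 3 gave 9 and 11 when left out. The cause was not tested. Survival counts of these genes stayed at 0 in every setting. The counts of 10 and 11 for the differences of effects became 3 and 6 without the 2 KO libraries and 4 and 6 with the block and the trend removed, and ranged from 6 to 12 and from 8 to 13 with 1 library left out. The labels do not say whether replicate numbers pair the samples. Same-numbered libraries correlated at -0.03 to 0.09 in their deviations from group means, and differently numbered ones at -0.10 to 0.11. These values do not settle the pairing. With the replicate block 15 of the 38 fell in the acute comparison, and 8 and 8 were lower in the differences of effects. Over all genes, the acute count of 1794 became 693 with eBayes without trend, 1056 with the block and the trend removed, 903 without the 2 KO libraries and 983 to 1634 with 1 library left out. Its split of 650 higher and 1144 lower became 746 and 832 with quantile normalization and 670 and 702 with the trend removed. For the differences of effects the splits of 325 and 749 and of 446 and 844 became 355 and 433 and 522 and 601 with the trend removed. The first-wave count of 0 became 1 with a pseudocount of 5, no filter, a filter at 50, quantile normalization or robust eBayes, 3 without the 2 WT libraries that stand apart, and 0 to 3 with 1 left out. The second-wave count of 32 became 14 with eBayes without trend, 13 with only the groups compared, 14 without the 2 WT libraries and 15 to 140 with 1 left out. The count of 17 between the waves became 1 with eBayes without trend, 2 with the block, 2 with the block and the trend removed, 34 without the 2 WT libraries and 1 to 38 with 1 left out. The count of 3 for both waves became 1 with the block and the trend removed, 5 without the 2 WT libraries and 2 to 155 with 1 left out. For the acute minus first-wave difference 1074 became 629 with eBayes without trend, 692 with the block, 438 with the block and the trend removed, 307 without the 2 KO libraries, 532 without the 2 WT libraries and 546 to 1937 with 1 left out. For the acute minus second-wave difference 1290 became 839, 820 with the block and the trend removed, 492, 798 and 738 to 2209 under the same settings. Genes that were not called changed sign in the acute comparison. Without the 2 KO libraries Atp5d was at 0.20, Atp5j2 at 0.073, Atp5k at 0.29, Atp5s at 0.038 and Cox5b at 0.17. With the trend removed, with or without the block, Atp5g3 was at 0.067, Atp5h at 0.050 and Uqcrb at 0.14. Atp5g2 was at -0.013 with quantile normalization and -0.38 with its copies summed, and its second-wave value became -0.076 with them summed. With 1 library left out, the ranges were -0.28 to 0.019 for Atp5d, -0.30 to 0.0505 for Atp5s, -0.35 to 0.0031 for Cox5b, -0.44 to 0.10 for Uqcr11, -0.22 to 0.0099 for Uqcrb, -0.40 to 0.056 for Uqcrq and -0.22 to 0.40 for Atp5g2.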
